A study of Mus musculus with 4 samples.

Results

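Hox genes encode homeodomain transcription factors that stand in 4 clusters, HoxA, HoxB, HoxC and HoxD, and the mouse has 39 of them in 13 paralog groups. The genes of a cluster are numbered along the chromosome, and in the embryo those with low numbers act towards the head and those with high numbers towards the tail and the far end of the limb. Cells of the mesenchyme keep part of this code in culture, so a Hox profile tells something of the place a cell line came from, and Polycomb and trithorax proteins hold clusters silent or active. Members were the genes whose listed name is Hox, a letter from a to d and a number, and all 39 were found among the 21878 genes with mRNA values (11 in HoxA, 10 in HoxB, 9 in HoxC and 9 in HoxD), with 74 transcripts that were summed per gene.

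C3H10T1/2 is a mouse mesenchymal cell line, labelled MSC, and 5-AZA stands for 5-azacytidine, a nucleoside that blocks DNA methyltransferases once built into DNA. RNA depleted of ribosomal RNA was sequenced from untreated cells (2 samples, replicates 1 and 2) and from cells exposed to 20 μM 5-AZA over 72 hours (2 samples), then kept in fresh medium for 21 days (replicates 101 and 102). No time in culture is listed for the untreated samples, so treatment and time cannot be told apart, and the p-values measure only the spread between these samples. Values are FPKM, fragments scaled to transcript length and to all fragments of the library, whose sums ranged from 328410 to 361664 over the 4 samples.

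In all 4 samples the Hox signal came from 1 cluster. HoxA genes summed to 29.0 and 27.6 FPKM in the untreated samples and to 28.0 and 30.0 FPKM in the 5-AZA samples, which was 99.3% to 99.8% of the signal of all Hox genes. The 28 genes of HoxB, HoxC and HoxD, with 55 transcripts, were below 0.1 FPKM in every sample, and 17 of them were listed at 0 in all 4. Their highest value was 0.0995 FPKM, for Hoxb13 in 5-AZA replicate 101 only. For comparison, 35.4% of all genes were below 0.1 FPKM in every sample. Since FPKM keeps no read counts, the depth behind values this low is unknown, and a listed 0 does not show that a gene was silent. Fewer cells of a type and less RNA per cell cannot be told apart in bulk samples.

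**Figure D1:**
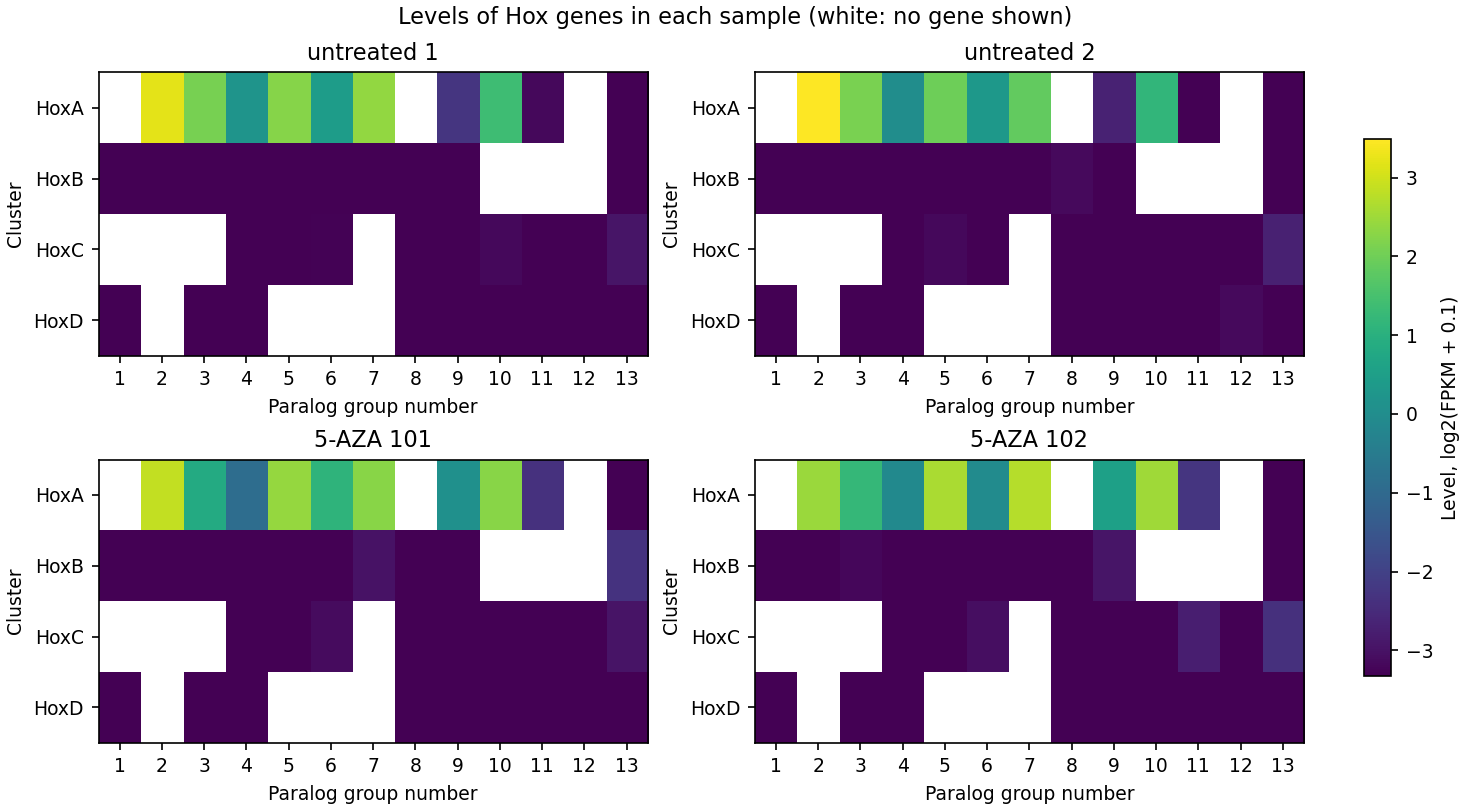
Level of Hox genes, as log2(FPKM + 0.1) by colour, with clusters in rows and paralog group numbers in columns, in each of the 4 samples. The HoxA row is lit in every sample and the rows of HoxB, HoxC and HoxD stay at or near the floor, since all 28 of their genes were below 0.1 FPKM.

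Summed by cluster, HoxB gave 0 and 0.0130 FPKM in the untreated samples and 0.125 and 0.0385 FPKM in the 5-AZA samples. HoxC gave 0.0442 and 0.0647 FPKM untreated and 0.0420 and 0.162 FPKM after 5-AZA. HoxD gave 0 and 0.0130 FPKM untreated and was listed at 0 in both 5-AZA samples. Each of these sums was under 0.2 FPKM, in treated and untreated samples alike. The 17 listed at 0 throughout were Hoxb1, Hoxb2, Hoxb4, Hoxb5, Hoxb6, Hoxc4, Hoxc8, Hoxc9, Hoxc12, Hoxd1, Hoxd3, Hoxd4, Hoxd8, Hoxd9, Hoxd10, Hoxd11 and Hoxd13. The 11 with some value above 0 were Hoxb3, Hoxb7, Hoxb8, Hoxb9, Hoxb13, Hoxc5, Hoxc6, Hoxc10, Hoxc11, Hoxc13 and Hoxd12. Hoxc6 was the only gene of the 28 with both 5-AZA values (0.0142 and 0.0199 FPKM) above both untreated values (0.00333 and 0 FPKM), and Hoxc13 had a value above 0 in each sample, from 0.0278 to 0.0929 FPKM. In each paralog group with a tested member, that member was the HoxA gene. Groups 8 and 12 have no HoxA gene, and their highest values were 0.0130 FPKM each.

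Genes beside the clusters were compared with them from a fixed list. HoxD lies between Mtx2, a mitochondrial outer membrane protein, which stood at 18.7 and 18.6 FPKM untreated and at 26.9 and 29.2 FPKM after 5-AZA, and Lnpk (listed as Lnp), a protein of the endoplasmic reticulum, at 6.25 to 6.60 FPKM. HoxC lies between the DNA glycosylase gene Smug1, at 5.27 to 5.65 FPKM, and Calcoco1, at 18.5 to 21.2 FPKM. These neighbours were thus expressed in samples in which the Hox genes between them were at or near 0. Around HoxB, Skap1 was listed at 0 in every sample and Ttll6 did not exceed 0.0348 FPKM. Around HoxA, Skap2 stood at 20.9 to 22.6 FPKM and Hibadh at 16.0 to 22.0 FPKM. Evx1 and Evx2, the homeobox genes just past Hoxa13 and Hoxd13, were listed at 0 in all 4 samples. Of the 10 neighbours 6 were tested and 0 were called, while an unadjusted p-value below 0.05 (limma) was reached by 2 higher and 0 lower genes. Mtx2 was one of these, and its change of 0.59 ± 0.11 (log2, standard error; limma adjusted p = 0.00396) is under the 2-fold limit. Over all 13199 genes tested, 13.1% were called higher and 1.32% lower. An unadjusted p-value below 0.05 (limma) was reached by 3220 higher and 1464 lower genes of these.

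**Figure D2:**
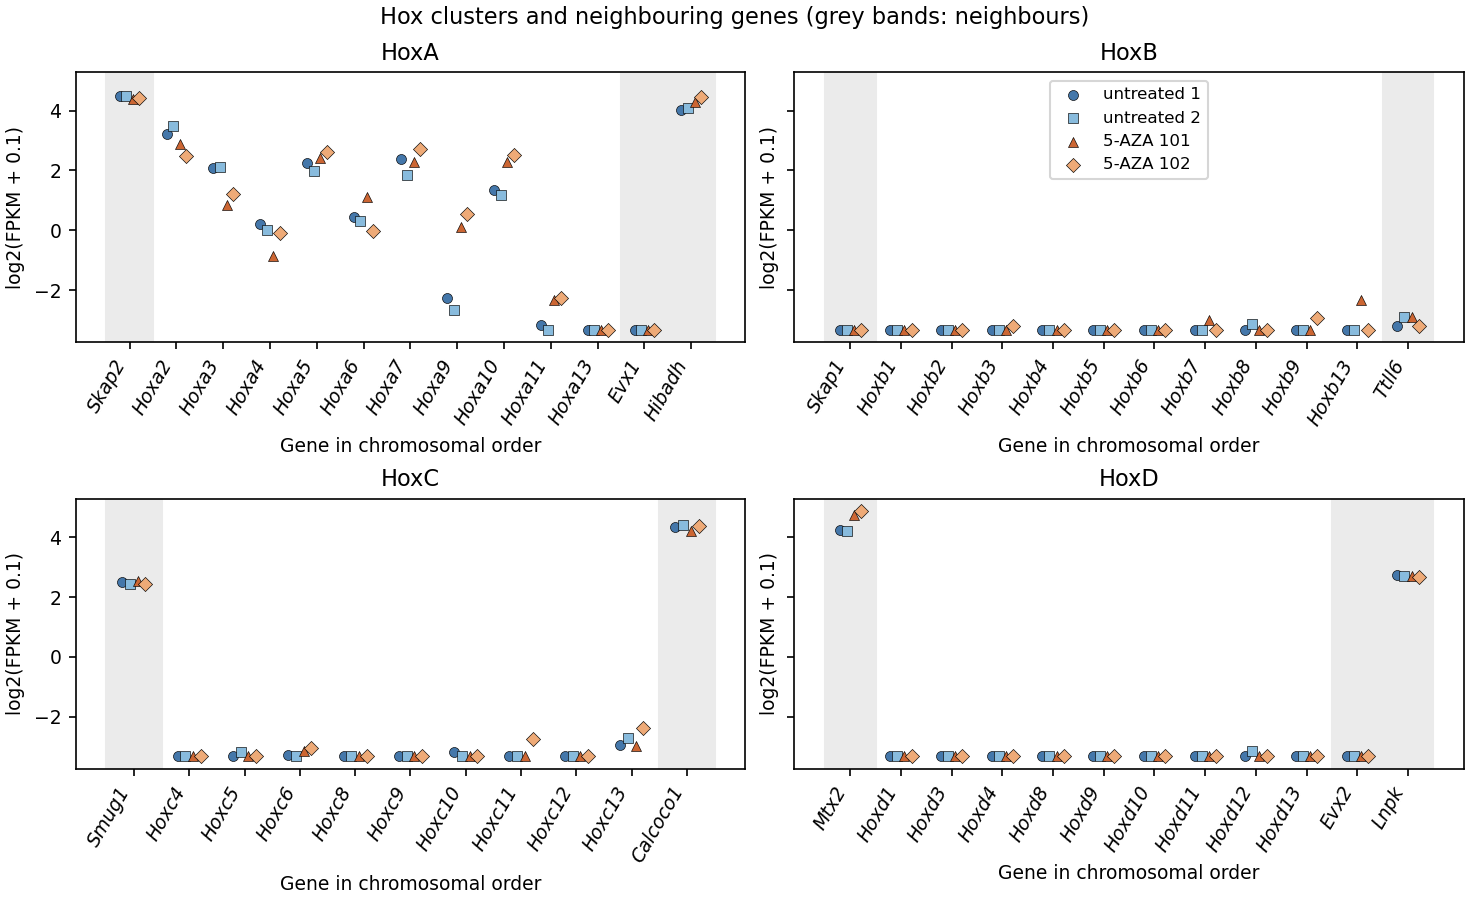
Level as log2(FPKM + 0.1) of genes along the 4 clusters and of listed neighbours (grey bands), from the side of the lowest Hox number, with 1 point for each of the 4 samples. Mtx2, Lnpk, Smug1, Calcoco1, Skap2 and Hibadh stand well above the floor, while the Hox genes of HoxC and HoxD between such neighbours stay on it.

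Within HoxA, 9 of the 11 genes passed the limit on low values (a mean of at least 0.1 FPKM), against 60.3% of all genes, and the same 9 reached 1 FPKM in at least 1 sample. In untreated cells Hoxa2, a selector of hindbrain and the second pharyngeal arch, was the highest, at 9.10 and 11.0 FPKM (SD 1.33, n = 2), with a mean above 62.6% of the genes tested. Hoxa7, Hoxa5 and Hoxa3 followed with means of 4.32, 4.23 and 4.22 FPKM and did not differ beyond their spread. Hoxa10 was next at 2.31 ± 0.228 FPKM, then Hoxa6 at 1.20 ± 0.0817 FPKM, and then Hoxa4 at 0.983 ± 0.0974 FPKM. Hoxa9 was the lowest of the 9, at 0.108 and 0.0576 FPKM. Hoxa13, which patterns the hand and foot, was listed at 0 in all 4 samples. The order was therefore not that of the cluster, with Hoxa9 far below its neighbours Hoxa7 and Hoxa10.

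In the 5-AZA samples the order was different. Hoxa2, Hoxa5, Hoxa7 and Hoxa10 had means of 6.33, 5.62, 5.61 and 5.16 FPKM, and each overlapped the next. Hoxa3 stood at 1.94 ± 0.363 FPKM, below Hoxa10 without overlap. Hoxa6, Hoxa9 and Hoxa4 followed at 1.47, 1.16 and 0.642 FPKM, of which Hoxa6 overlapped Hoxa9 and Hoxa9 lay above Hoxa4 without overlap. Hoxa10 was thus 1 of the 4 highest members after 5-AZA, and Hoxa3 was no longer close to Hoxa5 and Hoxa7.

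**Figure D3:**
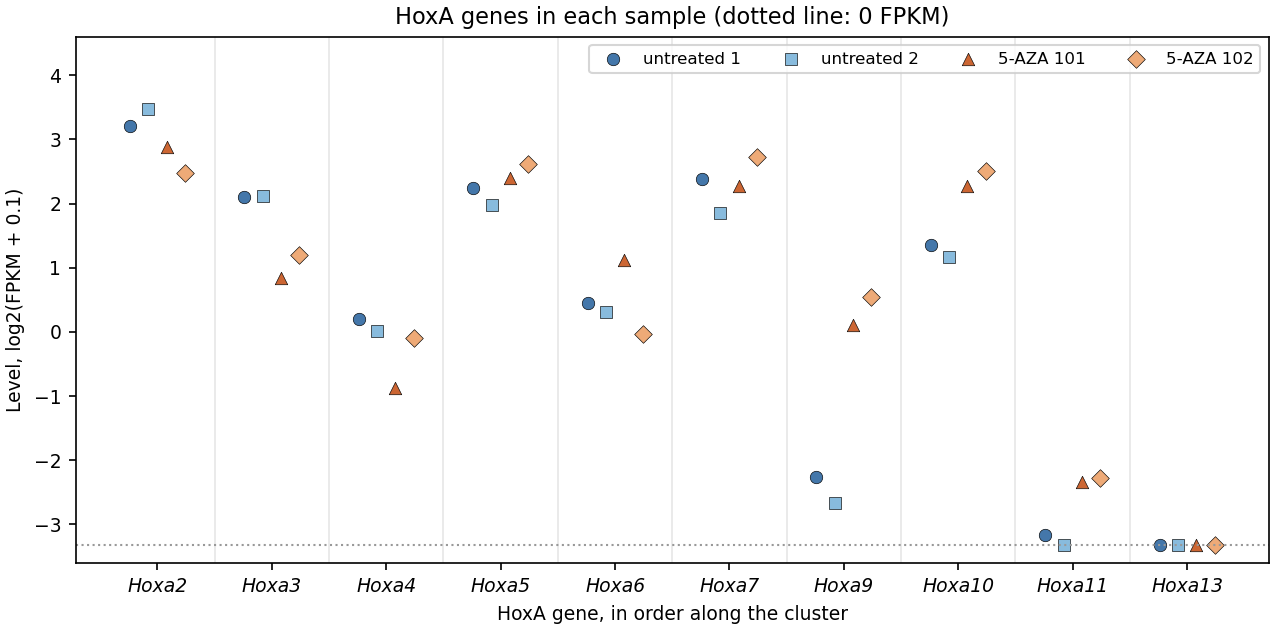
Level as log2(FPKM + 0.1) of 10 HoxA genes in order along the cluster, with 1 point for each of the 4 samples. The 5-AZA points of Hoxa9 and Hoxa10 lie above the untreated points and those of Hoxa2, Hoxa3 and Hoxa4 below them, while Hoxa6 and Hoxa7 overlap.

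Since DNA methylation in mammals sits on the C of CG dinucleotides, the promoters of the genes that differed most between the groups are shown with each CG in capitals. They run from 250 bases before to 50 after a transcription start in RefSeq (build GRCm38.p6), and all lie on the minus strand of chromosome 6. The table holds 2 starts for Hoxa10 and does not pair starts with transcripts. For Hoxa3, which has 5 transcripts, the start shown is therefore not known to be that of the transcript with most signal.
Hoxa9 (chr6:52227321-52227620): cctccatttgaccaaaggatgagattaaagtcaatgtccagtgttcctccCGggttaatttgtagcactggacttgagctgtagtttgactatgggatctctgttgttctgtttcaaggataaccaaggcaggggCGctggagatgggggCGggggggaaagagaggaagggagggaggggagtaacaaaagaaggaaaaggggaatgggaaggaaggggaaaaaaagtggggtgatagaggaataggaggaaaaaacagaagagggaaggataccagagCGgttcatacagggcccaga
Hoxa10, inner start (chr6:52234890-52235189): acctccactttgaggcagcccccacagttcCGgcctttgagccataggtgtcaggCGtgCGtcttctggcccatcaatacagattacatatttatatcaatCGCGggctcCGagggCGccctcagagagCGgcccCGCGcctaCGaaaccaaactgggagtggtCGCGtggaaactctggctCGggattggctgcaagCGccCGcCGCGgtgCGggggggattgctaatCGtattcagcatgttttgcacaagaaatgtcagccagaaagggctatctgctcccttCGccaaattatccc
Hoxa10, outer start (chr6:52240805-52241104): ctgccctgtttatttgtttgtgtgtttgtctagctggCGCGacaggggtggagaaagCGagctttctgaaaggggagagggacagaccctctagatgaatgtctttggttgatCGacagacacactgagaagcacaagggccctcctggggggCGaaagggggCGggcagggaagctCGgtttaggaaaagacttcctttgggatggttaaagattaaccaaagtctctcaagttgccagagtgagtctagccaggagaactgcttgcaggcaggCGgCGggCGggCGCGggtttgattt
Hoxa3 (chr6:52213018-52213317): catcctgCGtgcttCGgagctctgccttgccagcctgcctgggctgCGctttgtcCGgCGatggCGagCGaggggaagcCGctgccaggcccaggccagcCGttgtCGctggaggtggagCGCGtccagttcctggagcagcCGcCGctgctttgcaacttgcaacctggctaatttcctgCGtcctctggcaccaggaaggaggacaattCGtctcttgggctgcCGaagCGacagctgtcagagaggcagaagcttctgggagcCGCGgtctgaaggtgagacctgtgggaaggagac
Hoxa2 (chr6:52164782-52165081): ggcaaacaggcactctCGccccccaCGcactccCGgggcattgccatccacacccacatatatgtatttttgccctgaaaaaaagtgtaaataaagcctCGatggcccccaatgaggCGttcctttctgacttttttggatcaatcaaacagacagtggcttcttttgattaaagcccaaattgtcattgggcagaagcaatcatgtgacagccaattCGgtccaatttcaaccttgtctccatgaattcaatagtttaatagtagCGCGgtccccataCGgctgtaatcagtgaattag

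Hoxa9 had 4 CG dinucleotides in its window, Hoxa2 had 9, Hoxa3 had 20, and Hoxa10 had 21 at the inner and 12 at the outer start. Over all 32851 promoters of this length the median was 7, and 34.6% held 15 or more. The table matched 22 of the 39 Hox genes with 24 windows, of which 12 held 15 or more. In HoxA 6 of 10 windows did so, and in HoxD, whose genes were at or near 0, also 6 of 10, while 0 of 3 windows of HoxB and 0 of 1 of HoxC did so. HoxD windows held from 4 (Hoxd4 and 1 start of Hoxd11) to 37 (Hoxd13), with a median of 20. HoxA windows held from 4 (Hoxa9) to 45 (Hoxa13, listed at 0 in every sample), with a median of 17.5. Those of the expressed Hoxa5, Hoxa6 and Hoxa7 held 29, 26 and 9. The CG numbers of HoxA and HoxD windows overlapped, HoxB and HoxC had too few windows to compare, and the 2 genes called higher held 4 and, by start, 21 or 12. The motif TGATTNAT, which Hox proteins bind together with Pbx proteins, was searched on both strands. It was found in 2 of the 24 windows (8.33%), those of Hoxa2 and of 1 start of Hoxd11, and in 3.22% of all promoters. These are matches of letters, and no methylation was measured in these samples.

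After 5-AZA, Hoxa9 and Hoxa10 rose and Hoxa3 fell, each more than 2-fold at an adjusted p-value below 0.05. Hoxa9, a regulator of blood progenitors and of the trunk axis, went from 0.108 and 0.0576 FPKM to 0.975 and 1.35 FPKM. Both 5-AZA values were several times both untreated values, and the difference on the log2(FPKM + 0.1) scale was 2.78 ± 0.34 (standard error; limma adjusted p = 4.40e-04). The pseudocount of 0.1 is as large as the untreated level of this gene, and the ratio of the group means as deposited was 14. Hoxa9 passed the limit on low values only through its 5-AZA samples.

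Hoxa10, which patterns the lumbar spine and the uterus, went from 2.47 and 2.15 FPKM to 4.75 and 5.57 FPKM. The groups did not overlap, and the log2 difference was 1.13 ± 0.18 (standard error; limma adjusted p = 0.00233). Hoxa3, needed for thymus, parathyroid and the throat skeleton, went from 4.18 and 4.26 FPKM to 1.68 and 2.2 FPKM. Its log2 difference was -1.10 ± 0.20 (standard error; limma adjusted p = 0.00430). These 3 were 33.3% of the 9 Hox genes tested, 2 higher and 1 lower, counting Hoxa9, which was tested only through its 5-AZA samples. With a limit of 1 FPKM, which leaves Hoxa9 out, 1 of 6 Hox genes was called higher and 1 lower. Of the 10800 genes tested at that limit, 845 were called higher and 122 lower. Over all 13199 genes tested, 13.1% were called higher, 1.32% lower and 14.4% in either direction, and 90.8% of the calls were higher, which became 54.0% after quantile normalization. A share over 9 genes is coarse, and no test of the list was made.

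The calls rest on few samples. With 1 sample of a group left out, the remaining one is assumed to vary like the pair of the other group. Without 5-AZA replicate 102 the calls of Hoxa9, Hoxa10 and Hoxa3 were lost, and without replicate 101 those of Hoxa10 and Hoxa3. Fold changes kept their direction, with log2 values of 2.57, 1.01 and -1.28 for Hoxa9, Hoxa10 and Hoxa3 without replicate 102 and of 3.00, 1.24 and -0.91 without replicate 101.

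Hoxa2 was at 7.23 and 5.44 FPKM after 5-AZA, both below both untreated values, and the log2 difference of -0.66 ± 0.18 (standard error; limma adjusted p = 0.0255) was under 2-fold and was not called. Hoxa4 had 1.05 and 0.914 FPKM untreated against 0.445 and 0.838 FPKM after 5-AZA, a log2 difference of -0.60 (limma adjusted p = 0.235). Hoxa5, which acts in the neck, upper thorax and lung, had 4.64 and 3.83 FPKM untreated against 5.19 and 6.04 FPKM, a log2 difference of 0.40 (limma adjusted p = 0.137). For these 3 genes the samples of the groups did not overlap, but neither Hoxa4 nor Hoxa5 passed the test. Hoxa6, at 1.26 and 1.14 FPKM untreated and 2.07 and 0.876 FPKM after 5-AZA, and Hoxa7, at 5.13 and 3.52 against 4.74 and 6.49 FPKM, overlapped between the groups. Their log2 fold changes were 0.16 and 0.38, with standard errors of 0.36 and 0.23, and after quantile normalization that of Hoxa6 was -0.49. In all, 6 of the 9 genes (66.7%) had no overlap between groups, 3 above and 3 below, against 62.2% of all genes tested, so the share without overlap was near the background.

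Hoxa11, which patterns the forearm and lower leg, stayed under the limit on low values and was not tested. It was listed at 0.0114 and 0 FPKM untreated and at 0.0971 and 0.107 FPKM after 5-AZA. The groups did not overlap, but at such levels no fold change is given.

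**Figure D4:**
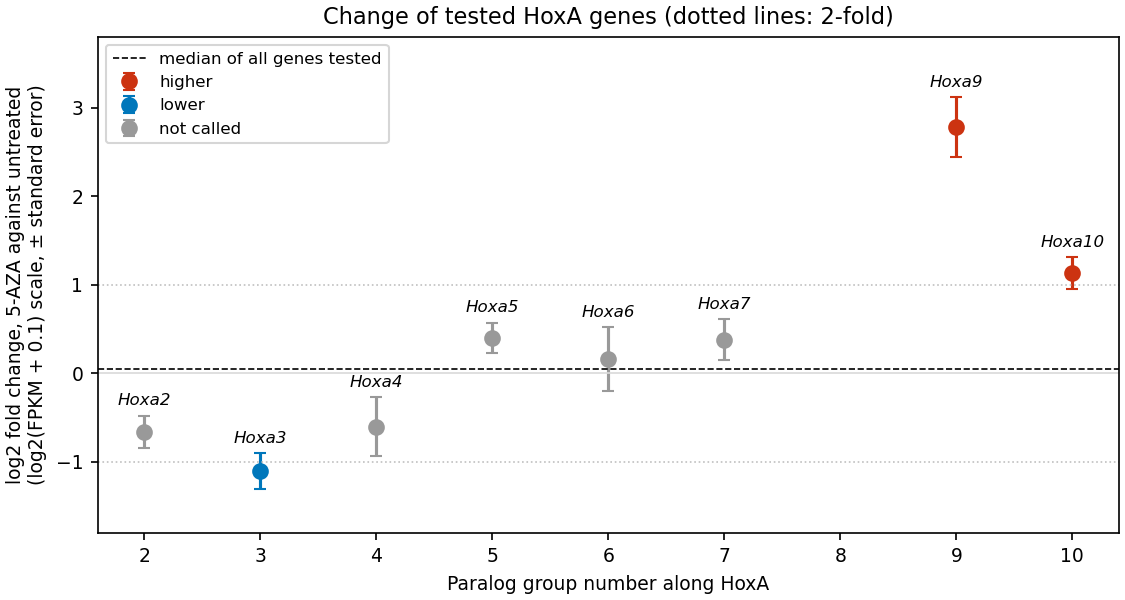
Log2 fold change of 8 tested HoxA genes after 5-AZA with its standard error, against paralog group number (no Hoxa8 exists). Hoxa9 and Hoxa10 lie above the upper 2-fold line, Hoxa3 below the lower one, and the dashed line is the median of all genes tested, 0.05.

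Read along the cluster, the change was below 0 at Hoxa2 to Hoxa4 and above 0 from Hoxa5 on. The median log2 fold change was -0.66 for the 3 anterior genes (numbers 1 to 3), 0.27 for the 4 central genes (4 to 7) and 1.96 for the 2 tested posterior genes (Hoxa9 and Hoxa10), against 0.05 for all genes tested and 0.16 for the 9 members. The posterior value depends on the pseudocount through Hoxa9, since at 1 FPKM the log2 fold changes of Hoxa9 and Hoxa10 were 0.99 and 0.90. Spearman's coefficient between paralog number and log2 fold change was 0.817 and Pearson's r was 0.763 over the 9 genes. Over the 6 genes left by a limit of 1 FPKM, which leaves Hoxa9 out, they were 0.771 and 0.914. These genes share 4 libraries and stretches of regulatory DNA, so this is a description with no p-value. In the 4 pairings of 1 untreated with 1 5-AZA sample Spearman's coefficient lay between 0.70 and 0.80. Between the 2 untreated samples it was -0.317, and between the 2 5-AZA samples -0.0333.

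Shares within the cluster do not change when all values of a library are multiplied by the same factor. They were not recomputed after quantile normalization, which is not of that kind. Anterior genes made up 49.5% and 57.9% of the summed HoxA FPKM in the untreated samples and 34.7% and 29.2% in the 5-AZA samples. Central genes made up 41.6% and 34.1% untreated and 44.5% and 47.4% after 5-AZA. Posterior genes made up 8.92% and 7.99% untreated and 20.8% and 23.4% after 5-AZA. Anterior and posterior shares did not overlap between the groups, and the posterior share came almost wholly from Hoxa10 and Hoxa9. The ratio of posterior to anterior FPKM was 0.180 and 0.138 untreated and 0.599 and 0.802 after 5-AZA, and that of Hoxa10 to Hoxa3 was 0.591 and 0.503 against 2.82 and 2.54. The sum over the cluster meanwhile overlapped between the groups (27.6 and 29.0 against 28.0 and 30.0 FPKM).

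**Figure D5:**
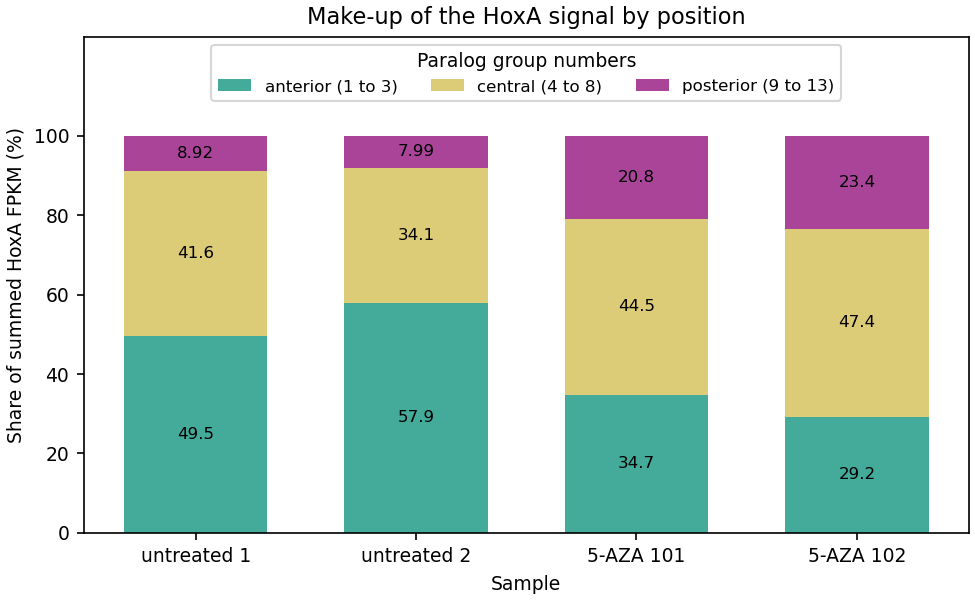
Share (%) of the summed HoxA FPKM held by anterior, central and posterior genes in each of the 4 samples. The posterior share is 8.92% and 7.99% in the untreated samples and 20.8% and 23.4% in the 5-AZA samples, and the anterior share is smaller in both 5-AZA samples.

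The deposited values are per transcript, and reads of shared exons can be divided among transcripts in different ways. For Hoxa9, NM_010456.3 went from 0.0447 and 0.0576 FPKM to 0.618 and 0.720 FPKM and NM_001277238.1 from 0.0633 and almost 0 to 0.357 and 0.628 FPKM. For Hoxa10, NM_001122950.2 carried most of the signal, with 2.40 and 1.93 FPKM untreated and 4.33 and 4.44 FPKM after 5-AZA. The other Hoxa10 transcript, NM_008263.3, went from 0.0735 and 0.215 FPKM to 0.418 and 1.13 FPKM. Both transcripts of Hoxa9 and both of Hoxa10 were higher in both 5-AZA samples. For Hoxa3 the predicted XM_017321404.1 was the highest of 5 transcripts, with 2.93 and 2.80 FPKM untreated and 1.22 and 1.00 FPKM after 5-AZA. The curated NM_010452.3 of Hoxa3 did not exceed 0.112 FPKM in any sample, so the fall of Hoxa3 rests on predicted transcripts. Taken as single transcripts, 15 of the 9 genes were tested with 0 called, and the smallest adjusted p-value was 0.127 (limma). At an unadjusted p-value below 0.05 (limma), 3 were higher and 2 lower, and no such count was made over all transcripts. Of all 35557 transcripts tested 2.1% were called higher and 0.262% lower, or 2.36% in either direction.

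Genes of the TALE class (Pbx, Meis and Pknox) encode proteins that bind DNA together with Hox factors. Of the 9 genes listed, 8 were tested and 0 were called, while limma gave 1 higher and 1 lower gene with an unadjusted p-value below 0.05. Over all 13199 genes tested, 13.1% were called higher and 1.32% lower, and 3220 were higher and 1464 lower at that unadjusted level. The median log2 fold change of the TALE genes was -0.05. Meis2 had 18.2 ± 0.868 FPKM untreated and 12.7 ± 0.815 FPKM after 5-AZA (SD, n = 2), a log2 difference of -0.52 (limma adjusted p = 0.0123) that is under 2-fold. Meis1 had 11.3 and 9.71 FPKM. Pknox2 went the other way, with 0.095 and 0.341 FPKM, a log2 difference of 1.17 (limma adjusted p = 0.0501) that was not called. Pknox2 passed the limit on low values only through its 5-AZA samples.

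Polycomb genes, whose products keep Hox clusters silent, and trithorax genes, whose products keep them active, were also called in 0 cases of 14 and of 9 tested. At an unadjusted p-value below 0.05, 1 Polycomb gene was higher and 2 were lower, and 0 trithorax genes were higher and 1 lower (limma). Of all 13199 genes tested, 3220 were higher and 1464 lower at that level, and 13.1% were called higher and 1.32% lower. The median log2 fold changes of the Polycomb and trithorax genes were -0.12 and -0.14. Bmi1 and Rnf2, of Polycomb repressive complex 1, had 43.3 and 28.1 FPKM untreated and 34.5 and 26.5 FPKM after 5-AZA, and Ezh1 had 13.7 and 11.6 FPKM. Ezh2, the main histone H3 methyltransferase of complex 2, had 6.01 and 3.68 FPKM, a log2 difference of -0.69 (limma adjusted p = 0.0125) that is under 2-fold. Cbx7 went the other way, with 1.03 and 1.88 FPKM, a log2 difference of 0.81 (limma adjusted p = 0.0408) that is also under 2-fold. Of trithorax genes, Dpy30 had 60.5 and 53.0 FPKM, Ash2l 16.6 and 19.4 FPKM and Kdm6a 12.3 and 9.81 FPKM.

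Of 11 genes that set Hox expression along the body axis, 5 were tested, 0 were called higher and 1 was called lower. Cyp26b1, an enzyme that breaks down retinoic acid, itself an inducer of Hox genes, fell from 3.10 ± 0.167 FPKM in untreated samples to 0.352 ± 0.0906 FPKM (SD, n = 2). Its log2 difference was -2.84 (limma adjusted p = 7.93e-05). Of the retinoic acid receptor genes, Rarg had 21.4 and 16.7 FPKM and Rara had 5.62 and 7.91 FPKM. Gdf11 had 11.0 and 12.8 FPKM and the Hox antagonist Gmnn had 9.01 and 7.62 FPKM. None of Rarg, Rara, Gdf11 and Gmnn was called. Cdx2, Cdx4 and Aldh1a2 were listed at 0 in all 4 samples. Of 25 genes of limb and positional mesenchyme, 14 were tested, 2 were called higher and 1 lower, beside 13.1% higher and 1.32% lower over all genes tested. Meox1, a somite homeobox gene, rose from 0.783 to 3.38 FPKM (log2 fold change 1.96, adjusted p = 4.21e-04, limma), Prrx2 rose from 20.1 to 40.8 FPKM (1.03, adjusted p = 4.66e-04) and Six2 fell from 3.14 to 1.34 FPKM (log2 fold change -1.15, adjusted p = 0.00562). Prrx1, a marker of limb mesenchyme, had 119 and 116 FPKM and Twist1 had 7.28 and 8.88 FPKM. Tbx5, Pitx1, Hand1, Hand2, Lmx1b, Msx2 and Barx1 were listed at 0 in all 4 samples.

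Noncoding transcripts gave the same picture by cluster. Within 10000 bases of the clusters the lncRNA values hold 35 entries at HoxA, 38 at HoxB, 10 at HoxC and 24 at HoxD. At HoxA 15 reached 0.1 FPKM in at least 1 sample and 7 reached 1 FPKM, while at the other 3 clusters 0 entries reached 0.1 FPKM. NONMMUT056941.2 (chr6:52165674-52169451, plus strand, antisense to HoxA) lies at the position of Hoxaas2. It runs from between Hoxa2 and Hoxa3 into the span of Hoxa3. Its values were 2.10 and 1.42 FPKM untreated and almost 0 and 0.487 FPKM after 5-AZA. NONMMUT056943.2 (chr6:52168510-52169564), which overlaps it on the same strand, was at almost 0 and 0.0989 FPKM untreated and at 0.824 FPKM and almost 0 after 5-AZA. How reads were divided between these entries was not tested, and neither was their difference between groups. None of the 4295 circRNAs had a Hox host gene.

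Markers of other cell types moved with the treatment. Of 10 mesenchymal markers 9 were tested and 1, Thy1, was called higher. Their sum was 3914 to 3984 FPKM untreated and 3237 to 3523 FPKM after 5-AZA, and Nt5e was listed at 0 in both untreated samples. Vim took the largest part of that sum, at 2337 FPKM untreated and 1279 FPKM after 5-AZA. The median log2 fold change of the list was 0.73, with 6 higher and 3 lower genes at an unadjusted p-value below 0.05 (limma). Of all 13199 genes tested, 3220 were higher and 1464 lower at that level, and 13.1% were called higher and 1.32% lower. All 9 tested of 10 skeletal muscle markers were called higher, and their sum went from between 1.45 and 1.73 to between 759 and 1159 FPKM, with Myf5 at 0. Of 6 adipocyte markers 5 were called higher, with sums of 30.1 to 45.3 and of 1094 to 1504 FPKM. Germ cell markers (3 of 6 higher, with Pou5f1 and Dppa3 at 0) summed to at most 0.0659 FPKM untreated and to 20.4 and 24.2 FPKM after 5-AZA. Epithelial markers (3 of 8 higher, with Esrp1 at 0) had sums of 0.877 to 0.967 and of 20.0 to 25.6 FPKM. Krt8 (0.387 and 17.3 FPKM) and Krt18 (0.00751 and 4.6 FPKM) made up most of that rise, while Cdh1 had 0.498 and 0.262 FPKM. Blood and endothelial markers (2 of 8 higher, with Kit and Kdr at 0) had sums of 3.51 to 3.84 and of 16.3 to 16.6 FPKM. Most of this rise was Cd34, with 0.438 and 13.5 FPKM, while Runx1 had 3.16 and 2.33 FPKM. Neural markers (1 of 9 higher, 1 lower, with Neurod1 and Elavl3 at 0) had sums of 6.55 to 7.22 and of 15.7 to 19.1 FPKM. Nes carried that difference, with 3.92 and 16.3 FPKM, whereas Sox2 had 1.79 and 0.271 FPKM, Tubb3 had 1.16 and 0.737 FPKM, and the list median was -0.59. Of the germ cell, epithelial, blood and endothelial, and neural lists, 3, 5, 4 and 3 genes were tested. The called Ddx4, Dazl and Sycp3 had untreated means of 0.0329, 0 and 0.0213 FPKM. They passed the limit on low values only through their 5-AZA samples, so a call of lower was hardly possible. The same holds for Myod1, Myog, Ckm, Myh3, Cidec, Epcam, Krt18 and Cdh5, with untreated means below 0.1 FPKM. The part of the marker shifts in the changes of HoxA genes was not tested.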

How the data were processed

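Per the labels and the paper's methods, RNA of 2 untreated and 2 5-AZA samples of C3H10T1/2 was depleted of ribosomal RNA and made into stranded libraries. The submitters' processing notes list Trimmomatic, HISAT2, Bowtie2 2.2.9, eXpress 1.5.1 and the build mm9, without roles. The authors deposited FPKM values per mRNA and lncRNA transcript and RPM values per circRNA. Positions listed beside the values were taken as GRCm38, since 87.3% of 2356 circRNA host transcripts lay within the GRCm38.p6 gene of that name (1 base tolerance). No such share was computed for mm9 or for the lncRNA positions. Starts of lncRNAs were raised by 1 base, since all 60976 lncRNAs of 1 exon had a length of end minus start.

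Transcripts were summed per gene. Log2(FPKM + 0.1) of genes with a mean of at least 0.1 FPKM was fitted with limma 3.58.1 (lmFit, eBayes with trend) in R 4.3.3 on all 4 samples. Benjamini-Hochberg adjustment covered all genes tested, and calls required an adjusted p-value below 0.05 and over 2-fold. The DESeq package named in the paper needs counts, which FPKM does not keep. The fit was tested on simulated data, with larger changes than those of Hoxa10 and Hoxa3 and in genes at higher mean levels than Hoxa9. That check therefore does not cover the calls of these genes. Members, lists and tests were chosen with earlier results of these data known, and lncRNAs were placed by position after the files were seen. Sums, counts and medians cover all members, some genes are not reported here singly, called members are given in full, and from each list the called genes and the highest others are named, with a few further genes chosen after their values were seen. Promoter sequences are those of RefSeq for GRCm38.p6. Pseudocounts, limits, scalings, curated transcripts and the omission of each sample were tried as alternatives.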

Additional observations from a re-analysis of the deposited data

Results flagged for a closer look

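The lncRNA values were part of no test, and 2 entries within HoxA on the strand of the Hox genes were at 1 FPKM or more in both 5-AZA samples and above both untreated samples. NONMMUT056957.2 (chr6:52224784-52225246, minus strand), within the span of Hoxa9, was listed at 0.143 and 0 FPKM untreated and at 1.09 and 2.46 FPKM after 5-AZA. It lies on the strand of Hoxa9, so reads of the pair cannot be told apart by strand. NONMMUT056954.2 (chr6:52210522-52213334, minus strand) overlaps the span of Hoxa3 and runs past 52213067, where that minus-strand gene starts. It covers the whole Hoxa3 promoter window shown above. This entry was listed at 1.22 and 0.644 FPKM untreated and at 1.66 and 1.35 FPKM after 5-AZA. Its reads cannot be told from those of Hoxa3 by strand either. The difference was not tested for either.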

How the results depend on the processing

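Of the Hox genes tested, 2 were called higher and 1 lower, and these counts depended on several choices. Those called higher numbered 0 with a pseudocount of 1 FPKM, 1 with a limit of 1 FPKM (Hoxa9 was not tested there) and 1 after quantile normalization, and from 0 to 2 with each sample left out. Those called lower numbered 0 with a pseudocount of 1 FPKM, 0 without a limit on low values (Hoxa3 had the same log2 fold change of -1.10 and a limma adjusted p-value of 0.0653 over 17510 genes), 0 with curated transcripts only (Hoxa3 was not tested there), 2 after quantile normalization (Hoxa3 and Hoxa4), and from 0 to 1 with each sample left out. With a pseudocount of 1 FPKM the log2 fold changes of Hoxa9, Hoxa10 and Hoxa3 were 0.99, 0.90 and -0.83 with adjusted p-values of 7.68e-04, 0.00290 and 0.00449 (limma), so that they missed the 2-fold limit and not the p-value. The median over the Hox genes tested, 0.16, was -0.49 after quantile normalization and 0.10 to 0.31 with each sample left out. That normalization took the median of all genes tested from 0.05 to -0.12 and the calls over all genes from 1724 higher and 174 lower to 1041 and 886. Counts over all genes were 875 and 86 with a pseudocount of 1 FPKM, 845 and 122 with a limit of 1 FPKM, 1179 and 83 without a limit, 925 and 52 without 5-AZA replicate 101 and 733 and 70 without 5-AZA replicate 102. Median centring took the median of all genes to -0.06. No called Hox gene changed sign under any alternative, while Hoxa6, which was not called, did so after quantile normalization and without 5-AZA replicate 101. Spearman's coefficient along HoxA was 0.733 to 0.833 over the alternatives. No paired analysis was possible because the groups share no replicate numbers. The number of samples and the unknown depth of FPKM limit every result.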
